A study of Homo sapiens with 9 samples.

Results

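Matricellular genes around SPARC were followed through 3 lines of the MDA-MB-231 breast cancer cell line. The set was chosen by name, with earlier results of these data known. It holds SPARC and its relatives SPARCL1, SPOCK1 and SMOC1, the tenascin TNC, the periostin gene POSTN, the thrombospondins THBS1 and THBS2, and the fibulins FBLN1 and EFEMP1. All 10 genes had a line in the table of 58884 genes, and 7 of them were among the 13055 genes that passed the filter on low counts and were tested. SPARCL1, SMOC1 and POSTN did not pass it and were fitted only in the alternative without a filter.

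RNA-seq was performed on 3 libraries of each line. Par is the parental MDA-MB-231 culture, a claudin-low line that is labelled as breast epithelial. LM2 and BrM2 are sub-populations of it that were recovered from mice for their growth in the lung and in the brain, respectively. Each is a single derived population, all 3 were grown alike as monolayers in serum-containing medium with no further treatment, and the replicates of a line were harvested at different passages, so the comparisons set 3 populations in culture side by side and hold no tumour or host tissue.

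Matricellular proteins are secreted into the extracellular matrix but, unlike collagens, they mostly tune how cells attach and signal rather than carry load. They bind collagens, growth factors, proteases and cell surface receptors such as integrins, CD44 and CD47, and they are typically low in resting adult tissue and high in development, wounds and tumours. In breast cancer, SPARC and TNC are known from work on spread to the lung, where TNC forms part of the niche around tumour cells.

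Depth ranged from 14371858 to 24511786 counts on genes per library, and levels are given as CPM, the counts of a gene relative to the library's total and scaled by the trimmed mean of M-values (TMM). A count of 0 allows a level of up to 0.115 to 0.221 CPM in a library, taking 3 counts as the limit, which covers counting error only. Of the mammary epithelial markers, KRT8 ranged from 304 to 1180 CPM and KRT18 from 268 to 712 CPM, whereas EPCAM reached at most 7.91 CPM and CDH1 at most 1.94 CPM. The replicate 1 libraries stood apart in all 3 lines: ZEB1, a repressor of epithelial genes, was at 26.2, 31.8 and 18.2 CPM in replicate 1 of Par, LM2 and BrM2 against 62.4 to 138 CPM in the other 6 libraries, and KRT18 was at 574 to 712 CPM against 268 to 338 CPM.

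The 250 bases ahead of the start site are shown for SPARC, which rose in both sub-populations, for THBS2, which moved in opposite directions in LM2 and BrM2, and for THBS1, its closest relative in the set and the member with the highest level in Par. The sequences are from RefSeq on GRCh38.p14, read 5′ to 3′ along the gene, at chr5:151686916-151687165 (minus strand) for SPARC, chr6:169253847-169254096 (minus strand) for THBS2 and chr15:39580829-39581078 (plus strand) for THBS1. Capitals mark matches on either strand to TATAAA (the TATA box), GGGCGG (the GC box of Sp factors), TGANTCA (the AP-1 site) and GGAGGA, where matches can overlap.

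SPARC: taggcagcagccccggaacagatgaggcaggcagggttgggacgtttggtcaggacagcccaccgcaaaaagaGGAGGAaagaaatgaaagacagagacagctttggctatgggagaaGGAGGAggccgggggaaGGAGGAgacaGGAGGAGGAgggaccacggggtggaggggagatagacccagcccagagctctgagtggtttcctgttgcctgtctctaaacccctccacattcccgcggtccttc
THBS2: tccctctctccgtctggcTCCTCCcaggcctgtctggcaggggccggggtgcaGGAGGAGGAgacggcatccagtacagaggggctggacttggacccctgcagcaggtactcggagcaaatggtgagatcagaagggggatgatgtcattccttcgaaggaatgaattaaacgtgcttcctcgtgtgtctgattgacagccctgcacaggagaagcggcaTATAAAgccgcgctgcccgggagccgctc
THBS1: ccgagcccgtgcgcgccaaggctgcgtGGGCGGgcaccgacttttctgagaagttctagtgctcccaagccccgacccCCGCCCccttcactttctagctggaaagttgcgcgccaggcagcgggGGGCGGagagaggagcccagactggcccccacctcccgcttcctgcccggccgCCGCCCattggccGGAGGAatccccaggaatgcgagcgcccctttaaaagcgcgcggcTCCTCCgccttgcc

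The SPARC stretch held 5 matches to GGAGGA and none to the other 3 motifs. The THBS2 stretch held 1 TATAAA and 3 GGAGGA, and the THBS1 stretch held 4 GGGCGG and 2 GGAGGA with no TATAAA. These letters are common: of 35116 RefSeq promoters of the same length, 31.8% held GGAGGA, 42.6% GGGCGG, 10.7% TATAAA and 6.57% TGANTCA. GC content was 59.2% for SPARC, 60% for THBS2 and 69.6% for THBS1. Of the 10 genes, 8 had a promoter in the reference, and SPOCK1 and EFEMP1 had no entry.

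To ask which of these genes separated the lung and brain sub-populations from Par, all 9 libraries were fitted together in edgeR with line as the only term, and p-values were adjusted over the 13055 genes. Between LM2 and Par, 4 of the 7 tested genes rose (SPARC, SPOCK1, TNC and FBLN1), 2 fell (THBS2 and EFEMP1) and THBS1 passed no threshold, beside 8.69% of all tested genes called in that comparison (4.17% higher and 4.52% lower). Between BrM2 and Par, SPARC, SPOCK1 and THBS2 rose, THBS1 and EFEMP1 fell, and TNC and FBLN1 were not called, beside 13.3% of all tested genes (6.25% higher and 7.02% lower). Both comparisons share the Par libraries. Because the set was chosen with earlier results of these data known, the shares of all genes give a scale and no test of the set.

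Directly between the sub-populations, THBS2 and EFEMP1 were higher in BrM2, SPARC, TNC and FBLN1 were higher in LM2, and SPOCK1 and THBS1 were not called, beside 8.10% of all tested genes (4.11% higher and 3.99% lower in BrM2). The median log2 fold change of the 7 genes was 0.98 for LM2 against Par, 1.01 for BrM2 against Par and -0.56 for BrM2 against LM2, where the medians of all tested genes were 0.01, -0.02 and -0.03. Without the replicate 1 libraries the number of called members was 6, 6 and 5 in the order above, beside 33.1%, 40.4% and 32.6% of all tested genes. Without the replicate 2 libraries it was 2, 1 and 1 (SPARC and EFEMP1 in LM2 against Par, and THBS2 in the other 2 comparisons), beside 0.536%, 1.22% and 0.406% of all tested genes. Without the replicate 3 libraries it was 3, 3 and 2 (SPARC, SPOCK1 and EFEMP1, then SPARC, SPOCK1 and THBS2, then SPARC and THBS2), beside 1.04%, 2.10% and 0.866%. The cause of this swing was not tested. In bulk libraries, a change in the share of cells that carry a transcript and a change in its amount per cell cannot be told apart. With replicate number as a block, 7, 6 and 7 members were called beside 34.5%, 42.7% and 37.5% of all tested genes.

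**Figure D1:**
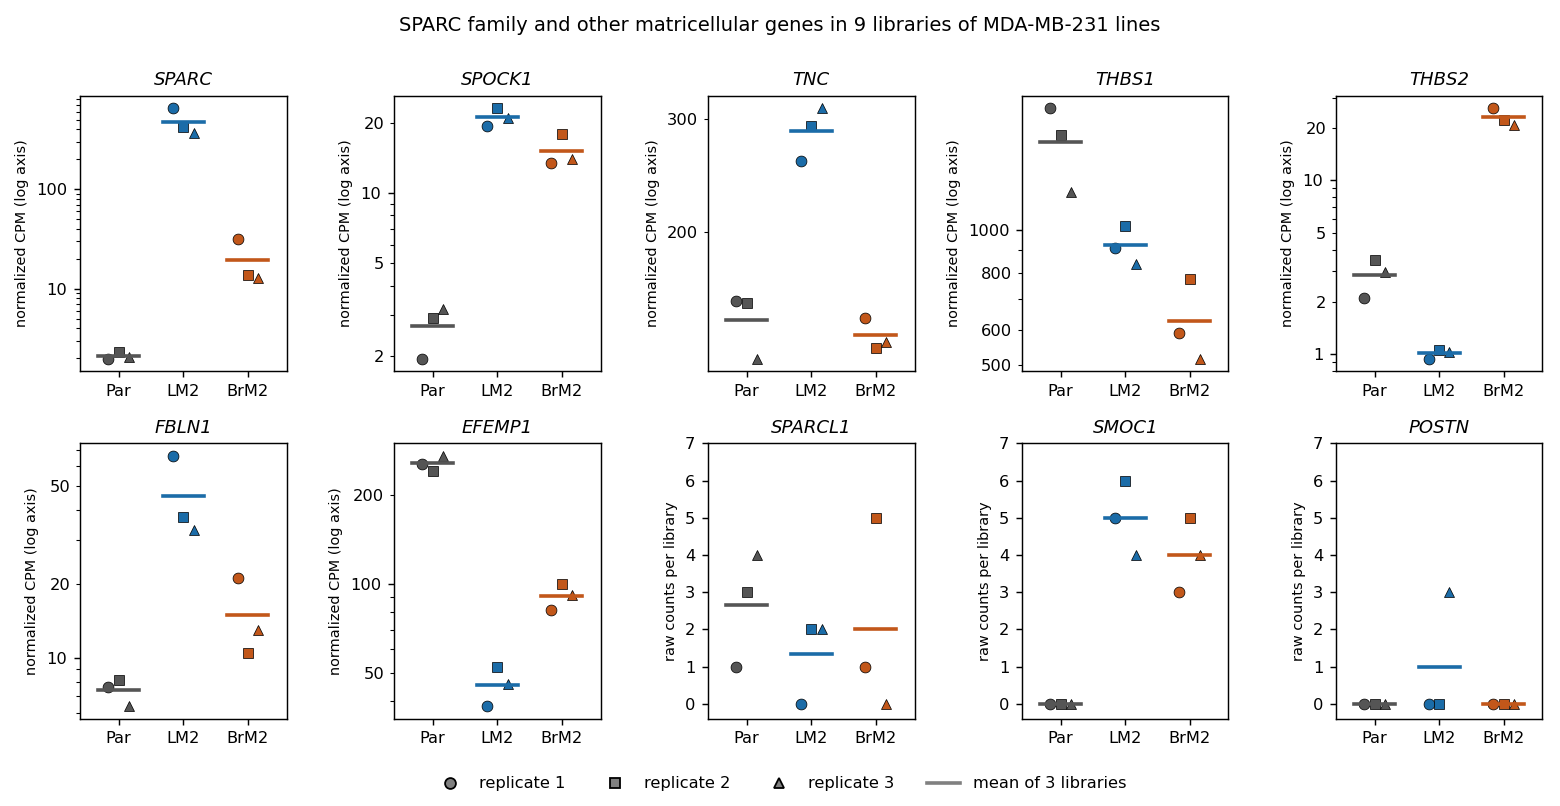
Level of each gene in the 9 libraries, as normalized CPM on a log axis for the 7 tested genes and as raw counts for SPARCL1, SMOC1 and POSTN. Symbols are replicates 1 to 3 and bars are means of 3 libraries; SPARC runs from 1.99 CPM in Par to 651 CPM in LM2, and the 3 untested genes never exceed 6 counts.

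SPARC (ENSG00000113140, chr5:151661096-151686915, minus strand) encodes a secreted glycoprotein that binds collagen and calcium. It was counted 38, 48 and 53 times in Par replicates 1 to 3, 13139, 10358 and 9561 times in LM2, and 434, 311 and 267 times in BrM2. The levels were 1.99, 2.31 and 2.08 CPM in Par, 651, 421 and 365 CPM in LM2, and 32, 13.7 and 12.8 CPM in BrM2. The 3 lines did not overlap, so the order of the lines was the same within each replicate number.

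The mean rose from 2.13 ± 0.168 CPM in Par (SD, n = 3) to 479 ± 152 CPM in LM2 (SD, n = 3), a 225-fold difference (log2 fold change 7.81, SE 0.50, edgeR adjusted p = 8.4e-05). This was the 9th largest rise among the 13055 tested genes. In BrM2 the mean was 19.5 ± 10.8 CPM (SD, n = 3), 9.10-fold above Par (log2 fold change 3.19, SE 0.41, adjusted p = 0.0012). SPARC was 24.7-fold lower in BrM2 than in LM2 (log2 fold change -4.63, SE 0.43, adjusted p = 0.00036). The replicate 1 library was the highest of its line for SPARC in LM2 and in BrM2, as were the KRT18 levels above. The part of that shift in the SPARC difference was not tested, and without the replicate 1 libraries SPARC was called in all 3 comparisons. The calls were also kept in each of the 9 fits that left out a library, but without the replicate 2 libraries SPARC kept its call in LM2 against Par and lost it in BrM2 against Par (adjusted p = 0.069) and in BrM2 against LM2.

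SPOCK1 (ENSG00000152377, chr5:136975298-137499326), the gene of testican-1, a proteoglycan with a SPARC-like domain, was at 1.94, 2.89 and 3.17 CPM in Par, 19.4, 23.1 and 21.0 CPM in LM2 and 13.5, 18.0 and 14 CPM in BrM2. Par was lowest in every replicate, and LM2 and BrM2 did not overlap. SPOCK1 was 7.90-fold higher in LM2 than in Par (log2 fold change 2.98, SE 0.26, adjusted p = 0.00028) and 5.67-fold higher in BrM2 than in Par (2.50, SE 0.25, adjusted p = 0.00034). BrM2 against LM2 gave a log2 fold change of -0.48 (95% confidence interval -1.01 to 0.06, adjusted p = 0.30), which passed the threshold with the replicate block (adjusted p = 0.031).

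The other 2 relatives were near the detection limit. SPARCL1 (ENSG00000152583, chr4:87473335-87529376), also called hevin, was counted 1, 3 and 4 times in Par, 0, 2 and 2 times in LM2 and 1, 5 and 0 times in BrM2. SMOC1 (ENSG00000198732, chr14:69879416-70032366), a basement membrane protein with a SPARC-like domain, was counted 0 times in each Par library, 5, 6 and 4 times in LM2 and 3, 5 and 4 times in BrM2. Set against the limit of 3 counts per Par library, the mean SMOC1 level was 1.54-fold higher in LM2 and 1.51-fold higher in BrM2. These ratios leave out the counting error of the 15 counts in LM2 and 12 in BrM2 and are no lower bounds. LM2 replicate 3, at 0.153 CPM, lay under the limit of 0.157 CPM in Par replicate 1. Neither gene passed the filter on low counts. In the fit with no filter SMOC1 was called in LM2 against Par (adjusted p = 0.020) and in BrM2 against Par (adjusted p = 0.018), and SPARCL1 was not called.

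TNC (ENSG00000041982, chr9:115019575-115118157, minus strand), which encodes the large six-armed glycoprotein tenascin-C, was at 156, 155 and 127 CPM in Par, 258, 293 and 312 CPM in LM2 and 147, 132 and 135 CPM in BrM2. All LM2 libraries lay above all others, and Par and BrM2 overlapped. TNC was 1.97-fold higher in LM2 than in Par (log2 fold change 0.98, SE 0.17, adjusted p = 0.0066) and 2.09-fold lower in BrM2 than in LM2 (log2 fold change -1.06, SE 0.17, adjusted p = 0.0047). BrM2 against Par gave -0.08 on the log2 scale (95% confidence interval -0.45 to 0.29, adjusted p = 0.84). POSTN (ENSG00000133110, chr13:37562585-37598768), a fasciclin-domain protein of collagen-rich tissue, was counted 3 times in LM2 replicate 3 and 0 times in the other 8 libraries, so its levels could not be compared at this depth.

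THBS1 (ENSG00000137801, chr15:39581079-39599466, plus strand) encodes thrombospondin-1, a trimer that binds CD47 and CD36 and can activate latent TGF-beta. Its levels were 1860, 1620 and 1210 CPM in Par, 912, 1020 and 838 CPM in LM2 and 589, 775 and 517 CPM in BrM2. Par lay above both sub-populations in every library, and LM2 lay above BrM2. THBS1 was 2.50-fold lower in BrM2 than in Par (log2 fold change -1.32, SE 0.23, adjusted p = 0.0052). The difference between LM2 and Par was -0.76 on the log2 scale (95% confidence interval -1.27 to -0.26) and was not called (adjusted p = 0.074), although it passed with the replicate block (adjusted p = 0.0016) and in DESeq2 (adjusted p = 0.029). BrM2 against LM2 gave -0.56 (95% confidence interval -1.06 to -0.05, adjusted p = 0.20), which passed with the replicate block (adjusted p = 0.0074).

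THBS2 (ENSG00000186340, chr6:169215785-169253846, minus strand), a trimeric relative known as an inhibitor of angiogenesis, was counted 40, 72 and 76 times in Par, 19, 26 and 27 times in LM2 and 353, 506 and 437 times in BrM2. The corresponding levels were 2.10, 3.47 and 2.98 CPM, 0.942, 1.06 and 1.03 CPM, and 26.0, 22.3 and 20.9 CPM. The 3 lines did not overlap, with Par between the sub-populations. THBS2 was 2.81-fold lower in LM2 than in Par (log2 fold change -1.49, SE 0.25, adjusted p = 0.0065) and 8.06-fold higher in BrM2 than in Par (3.01, SE 0.25, adjusted p = 0.00015). The direct difference was 22.7-fold in favour of BrM2 (log2 fold change 4.50, SE 0.27, adjusted p = 7.3e-05), opposite in sign to that of SPARC. The BrM2 against LM2 call was kept in each of the 9 fits without 1 library and in each of the 3 without 1 replicate number. The LM2 against Par call was kept in the 9 fits without 1 library. It was lost without the replicate 2 libraries (edgeR adjusted p = 0.31) and without the replicate 3 libraries (0.27).

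FBLN1 (ENSG00000077942, chr22:45502883-45601135, plus strand), the gene of fibulin-1, a component of basement membranes and elastic fibres, was at 7.65, 8.15 and 6.38 CPM in Par, 66.1, 37.2 and 33.0 CPM in LM2 and 21.2, 10.5 and 13.0 CPM in BrM2. The lines did not overlap, and replicate 1 was again the highest library in LM2 and in BrM2. FBLN1 was 6.14-fold higher in LM2 than in Par (log2 fold change 2.62, SE 0.36, adjusted p = 0.0024). In BrM2 it was 2.01-fold above Par (log2 fold change 1.01, 95% confidence interval 0.22 to 1.80), which was not called (adjusted p = 0.10). That difference passed with the replicate block (adjusted p = 0.0037), in DESeq2 (adjusted p = 0.039) and without LM2 replicate 1 (adjusted p = 0.044).

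FBLN1 was 3.05-fold lower in BrM2 than in LM2 (log2 fold change -1.61, SE 0.35, adjusted p = 0.023). This call was lost without LM2 replicate 2 (-1.73, adjusted p = 0.050), without BrM2 replicate 2 (-1.43, adjusted p = 0.091) and without BrM2 replicate 3 (-1.52, adjusted p = 0.11).

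EFEMP1 (ENSG00000115380, chr2:55865967-55923782), which encodes fibulin-3, ran the other way. Its levels were 255, 242 and 272 CPM in Par, 38.5, 52.2 and 45.6 CPM in LM2 and 81.5, 100 and 91.8 CPM in BrM2. No line overlapped another, and Par was highest. EFEMP1 was 5.63-fold lower in LM2 than in Par (log2 fold change -2.49, SE 0.19, adjusted p = 0.00012), 2.81-fold lower in BrM2 than in Par (-1.49, SE 0.18, adjusted p = 0.00085) and 2.01-fold higher in BrM2 than in LM2 (1.0, SE 0.18, adjusted p = 0.0090).

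**Figure D2:**
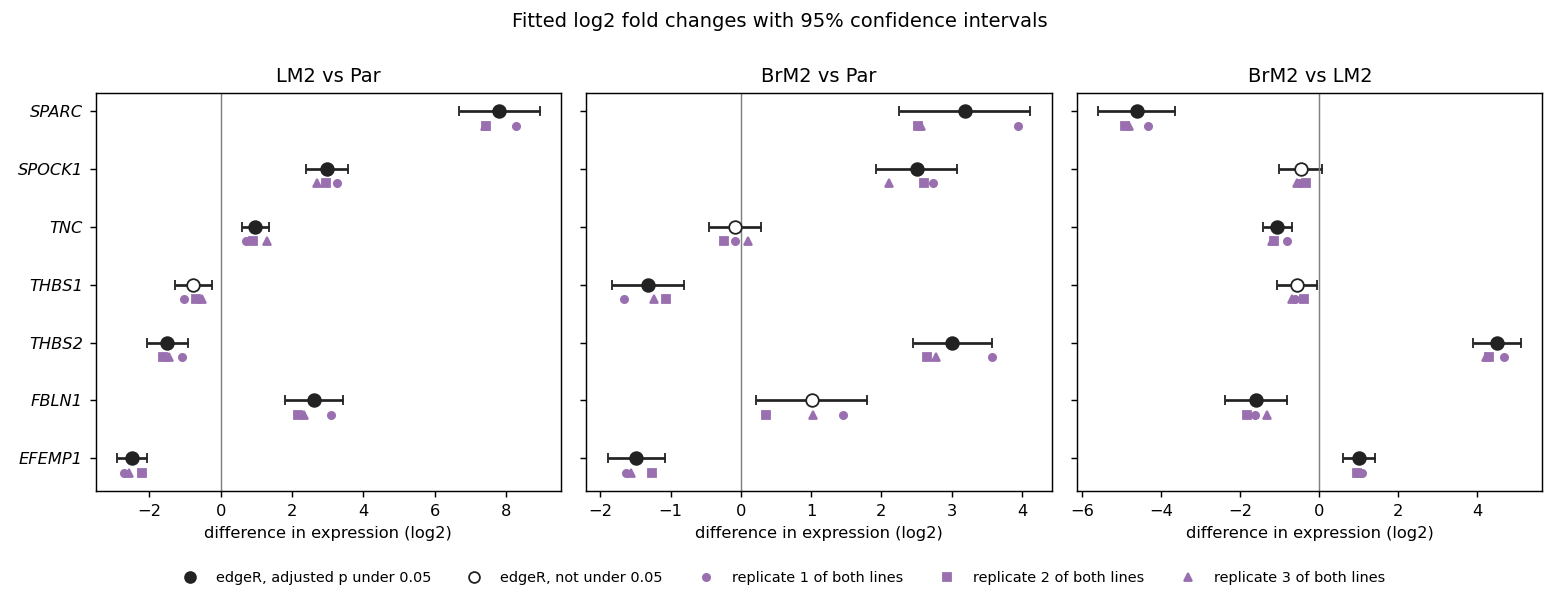
Fitted log2 fold changes of the 7 tested genes in the 3 comparisons, with bars for 95% confidence intervals; filled circles have an edgeR adjusted p under 0.05. Small symbols are the differences within each replicate number; for SPARC in LM2 against Par they are 8.29, 7.45 and 7.40, and for THBS2 in BrM2 against LM2 4.66, 4.28 and 4.22.

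Across the 10 genes and without a test, LM2 and Par did not overlap for 8 (5 higher and 3 lower in LM2), beside 25.2% of the tested genes. BrM2 and Par did not overlap for 7 (5 higher and 2 lower in BrM2), beside 31.3%, and BrM2 and LM2 did not overlap for 7 (2 higher and 5 lower in BrM2), beside 23.1%. SMOC1 is counted here with levels at 3 to 6 counts per library in the sub-populations. Since replicate numbers were shared across lines, the differences within a number were also compared. For the members called in a comparison, all 3 within-number differences had the sign of the fit. The libraries of the compared lines did not overlap for any of these, so the signs were bound to match and add no support.

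To compare levels between genes, CPM was divided by the length of the longest transcript in kilobases. THBS1 led in Par at 200 ± 42.1 CPM per kilobase (SD, n = 3), followed by EFEMP1 at 84.7 ± 4.96, TNC at 17.2 ± 1.98 and FBLN1 at 2.54 ± 0.314. SPARC at 0.617, SPOCK1 at 0.553 and THBS2 at 0.490 CPM per kilobase came last of the tested genes, and neighbours among these 3 overlapped.

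In LM2 the order changed: SPARC at 139 ± 44 and THBS1 at 118 ± 11.5 CPM per kilobase (SD, n = 3) led with overlapping libraries. TNC followed at 33.8, then FBLN1 at 15.6 and EFEMP1 at 15.0, which overlapped, then SPOCK1 at 4.39 and THBS2 at 0.174. The median length over each gene's coding transcripts, the lower middle value where their number is even, was also used in place of the longest. THBS1 (1580 CPM per kilobase) then stood above SPARC (832 CPM per kilobase) in LM2. THBS1 has 2 coding transcripts, so its length here was that of the shorter, 582 bases against 7789 for the longest. The order of these 2 genes thus depends on the length taken. By the longest transcript, BrM2 kept the top 3 of Par, with THBS1 at 80.5, EFEMP1 at 30.2 and TNC at 16.2, while SPARC at 5.65, FBLN1 at 5.13, THBS2 at 3.96 and SPOCK1 at 3.15 each overlapped the next. Other places also changed with the median length. SPOCK1 (26.6) then stood above FBLN1 (22.2) and THBS2 (4.08) in BrM2. EFEMP1 (81.2) stood above FBLN1 (67.7) in LM2, and SPOCK1 (4.68) above SPARC (3.7) in Par.

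**Figure D3:**
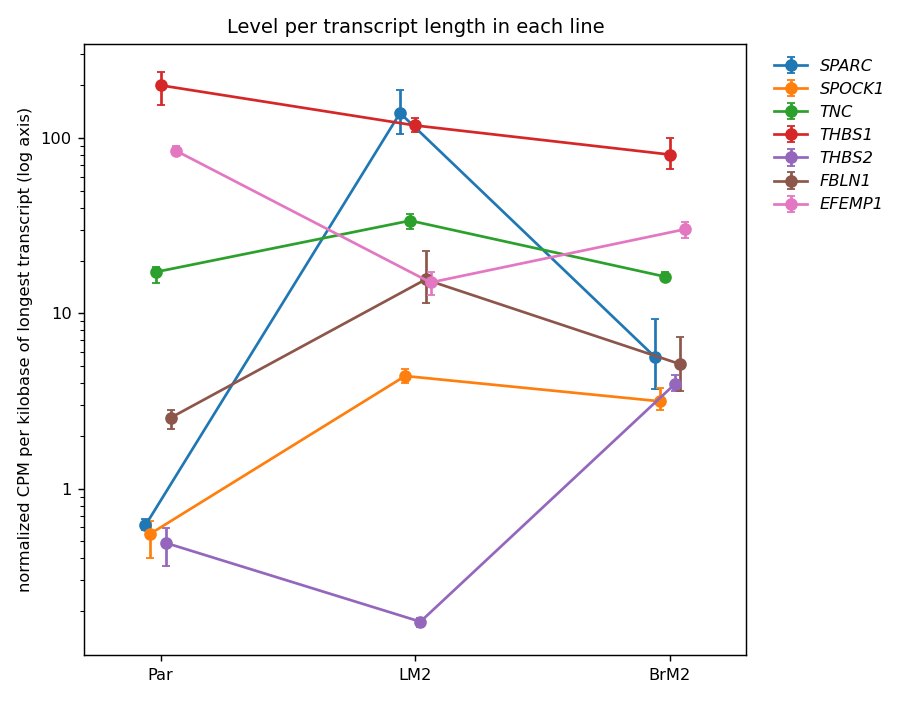
Normalized CPM per kilobase of the longest transcript for the 7 tested genes in Par, LM2 and BrM2, on a log axis. Points are means of 3 libraries and bars span the lowest and highest library; SPARC moves from 0.617 in Par to 139 in LM2 and 5.65 in BrM2.

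The lines sort into separate clusters, so a correlation over the 9 libraries mainly restates the differences between lines and is given only as a description. On log2 CPM, Pearson's r of SPARC was 0.975 with FBLN1, 0.864 with TNC, 0.855 with SPOCK1, -0.416 with THBS2, -0.422 with THBS1 and -0.968 with EFEMP1 (n = 9 libraries). Within LM2, replicate 1 was highest for SPARC and for FBLN1 but lowest for TNC and EFEMP1. Outside the set, the 5 genes most like SPARC by the same measure were PADI4 (r = 0.991), PPP2R2C (r = 0.990), NGRN (r = 0.986), ENSG00000234476 (r = 0.984) and LINC01615 (r = 0.980). PADI4, which encodes a peptidylarginine deiminase, ranged from 0 to 0.0524 CPM in Par, 7.94 to 13.4 CPM in LM2 and 0.220 to 0.663 CPM in BrM2.

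**Figure D4:**
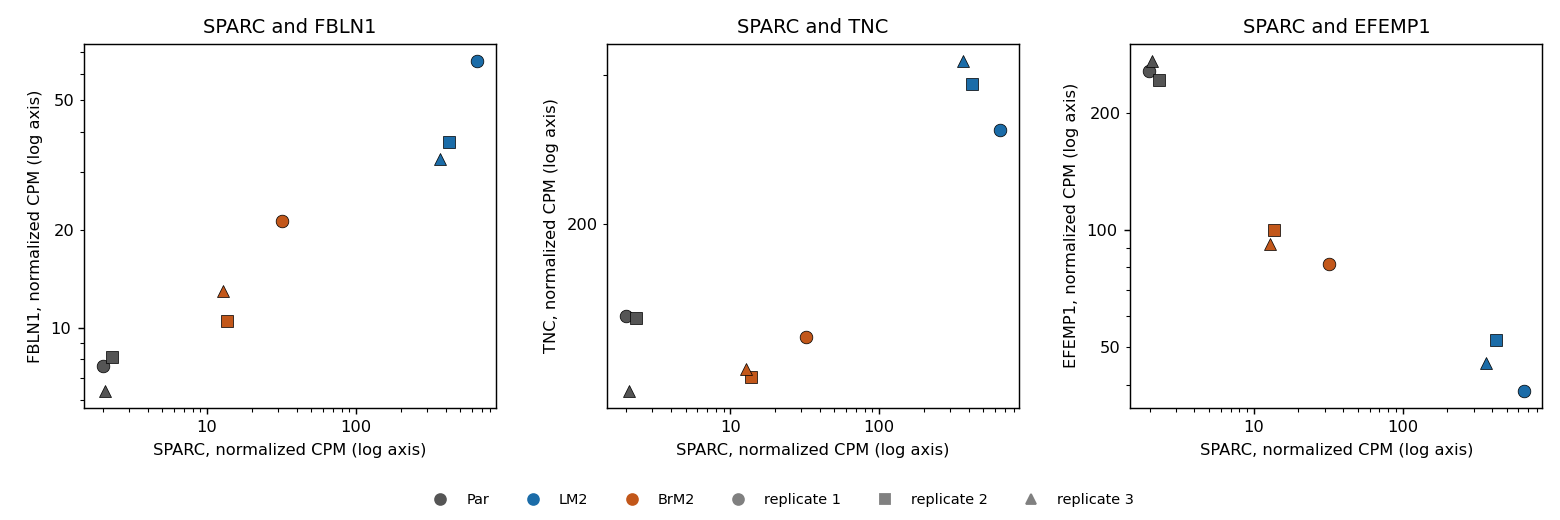
Levels of FBLN1, TNC and EFEMP1 against SPARC in the 9 libraries, in normalized CPM on log axes; colours are lines and symbols are replicate numbers. FBLN1 lies highest where SPARC is highest (66.1 and 651 CPM in LM2 replicate 1), whereas EFEMP1 is lowest there (38.5 CPM).

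The families of the members were then read out of the same fits. Over these lists and the marker lists 38 differences were called, of which 38 were still called without the replicate 1 libraries, 6 without the replicate 2 libraries and 9 without the replicate 3 libraries. The calls over the whole table swung likewise: these 3 fits called 33.1%, 0.536% and 1.04% of all tested genes in LM2 against Par. Of 4 further SPARC family genes, 2 were tested (SPOCK3 and FSTL1) and 0 were called in any comparison by edgeR. At an unadjusted p under 0.05 there was 1 in LM2 against Par, 2 in BrM2 against Par and 0 in BrM2 against LM2, DESeq2 called 0, 2 and 0, and the replicate block 1, 2 and 0. Of all tested genes, edgeR called 8.69%, 13.3% and 8.10%, and the replicate block 34.5%, 42.7% and 37.5%. THBS3, a pentameric thrombospondin and the tested gene of 3 further thrombospondins, was 2.23-fold lower in LM2 than in Par (log2 fold change -1.16, adjusted p = 0.030) and 3.77-fold lower in BrM2 than in Par (-1.92, adjusted p = 0.0022). The LM2 call was lost in the 6 fits without Par replicate 2 or 3, LM2 replicate 1, 2 or 3 or BrM2 replicate 3 (adjusted p up to 0.12). TNXB, the tested gene of 3 further tenascins, was 2.11-fold lower in BrM2 than in Par (-1.08, adjusted p = 0.029), a call kept only in 3 of the 9 fits without 1 library, those without LM2 replicate 1 or 3 or BrM2 replicate 1 (adjusted p up to 0.12 in the others).

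TGFBI, the fasciclin-domain relative of POSTN, was well expressed where POSTN was not. It ranged from 165 to 209 CPM in Par, 252 to 428 CPM in LM2 and 20.7 to 27.5 CPM in BrM2. TGFBI was 8.22-fold lower in BrM2 than in Par (log2 fold change -3.04, adjusted p = 0.00017) and 14.1-fold lower in BrM2 than in LM2 (-3.81, adjusted p = 8.1e-05). LM2 against Par gave 0.77 (95% confidence interval 0.24 to 1.31, adjusted p = 0.083), which passed with the replicate block (adjusted p = 0.0014).

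Of 5 further fibulins, 4 were tested, with 1 higher and 1 lower in each sub-population against Par, or 2 higher and 2 lower in LM2 with the replicate block. Of all tested genes, 8.69% were called in LM2 against Par (34.5% with the block) and 13.3% in BrM2 against Par. FBLN5, an elastic fibre assembly protein, had 9, 3 and 3 counts in the Par libraries, 85, 80 and 83 in those of LM2 and 52, 46 and 55 in those of BrM2. It was 14.7-fold higher in LM2 (log2 fold change 3.88, adjusted p = 0.0017) and 11.6-fold higher in BrM2 (3.54, adjusted p = 0.0020) than in Par. Without Par replicate 1 these were 26.1-fold and 20.7-fold, and both calls were lost without the replicate 2 libraries (adjusted p = 0.11 and 0.098) and without the replicate 3 libraries (0.093 and 0.079). FBLN7 was 2.90-fold lower in LM2 than in Par (-1.53, adjusted p = 0.0089; 0.053 without LM2 replicate 2) and 13.2-fold lower in BrM2 than in Par (-3.73, adjusted p = 0.00018), and it was 4.58-fold lower in BrM2 than in LM2 (-2.19, adjusted p = 0.0029).

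Of 7 CCN proteins and osteopontin, 3 were tested and 2 rose in BrM2 against Par: CCN2 (2.36-fold, log2 fold change 1.24, adjusted p = 0.0050) and CCN3 (3.17-fold, 1.66, adjusted p = 0.00086). Of all tested genes, 13.3% were called in that comparison. Between LM2 and Par edgeR called 0, where 1 was under an unadjusted p of 0.05 and 1 was called by DESeq2 and with the replicate block. The shares of all tested genes there were 8.69% in edgeR and 34.5% with the block. CCN4, which did not pass the filter and was singled out after its values were seen, was counted 0, 0 and 2 times in Par, 17, 23 and 36 times in LM2 and 0 times in each BrM2 library. From the summed counts it was 35-fold higher in LM2 than in Par (95% exact counting interval 9.36 to 294), and edgeR without a filter called it (adjusted p = 7.6e-05). CCN3 was also 2.6-fold higher in BrM2 than in LM2 (1.38, adjusted p = 0.0033), beside 8.10% of all tested genes called. With the replicate block all 3 tested genes of this list were higher there, beside 37.5% of all tested genes called.

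Of 11 receptors and uptake proteins of these ligands, 8 were tested, and 0, 1 and 1 were called in LM2 against Par, BrM2 against Par and BrM2 against LM2, each time lower, where 8.69%, 13.3% and 8.10% of all tested genes were called, and 4, 4 and 3 were called in either direction with the replicate block (34.5%, 42.7% and 37.5% of all tested genes). In LM2 against Par 1 was under an unadjusted p of 0.05, and DESeq2 called 1. ITGB5, an integrin subunit, was 3.22-fold lower in BrM2 than in Par (log2 fold change -1.69, adjusted p = 0.011; up to 0.062 without BrM2 replicate 2 or 3). LRP1, an endocytic receptor for thrombospondins, was 2.31-fold lower in BrM2 than in LM2 (-1.21, adjusted p = 0.020; up to 0.096 without LM2 or BrM2 replicates 2 or 3). The median log2 fold change of the 8 was 0.03, -0.30 and -0.14.

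Of 12 matrix proteins and enzymes that matricellular proteins bind, 10 were tested. In LM2 against Par 2 rose and 1 fell (median log2 fold change 0.30), where 8.69% of all tested genes were called. At an unadjusted p under 0.05 there were 7, DESeq2 called 5, and 9 passed with the replicate block (34.5% of all tested genes). In BrM2 against Par 4 fell and 0 rose (median -0.05; 13.3% of all tested genes called), with 0 higher at an unadjusted p under 0.05 or in DESeq2. In BrM2 against LM2 5 were lower and 0 higher (median -0.88; 8.10% of all tested genes called), or 7 lower and 1 higher with the replicate block and 5 lower and 1 higher in DESeq2, with 1 higher at an unadjusted p under 0.05. COL1A1 and COL1A2, the chains of type I collagen, parted ways: COL1A1 was 6.37-fold higher in LM2 than in Par (log2 fold change 2.67, adjusted p = 0.0026), and COL1A2 was 4.83-fold lower (-2.27, adjusted p = 0.0019).

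COL1A2 was counted 625, 520 and 571 times in Par, 129, 117 and 143 times in LM2, and 0, 1 and 0 times in BrM2. From the summed counts, Par was 1503-fold above BrM2 (95% exact counting interval 269 to 59392) and LM2 314-fold above BrM2 (56 to 12425), intervals that rest on 1 count in BrM2 and cover counting error only. COL5A1 was 4.55-fold lower in BrM2 than in Par (-2.19, adjusted p = 0.00048), and FN1, the gene of fibronectin, was 3.05-fold lower (-1.61, adjusted p = 0.00041). FN1 was also 3.90-fold lower in BrM2 than in LM2 (-1.96, adjusted p = 0.00027).

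**Figure D5:**
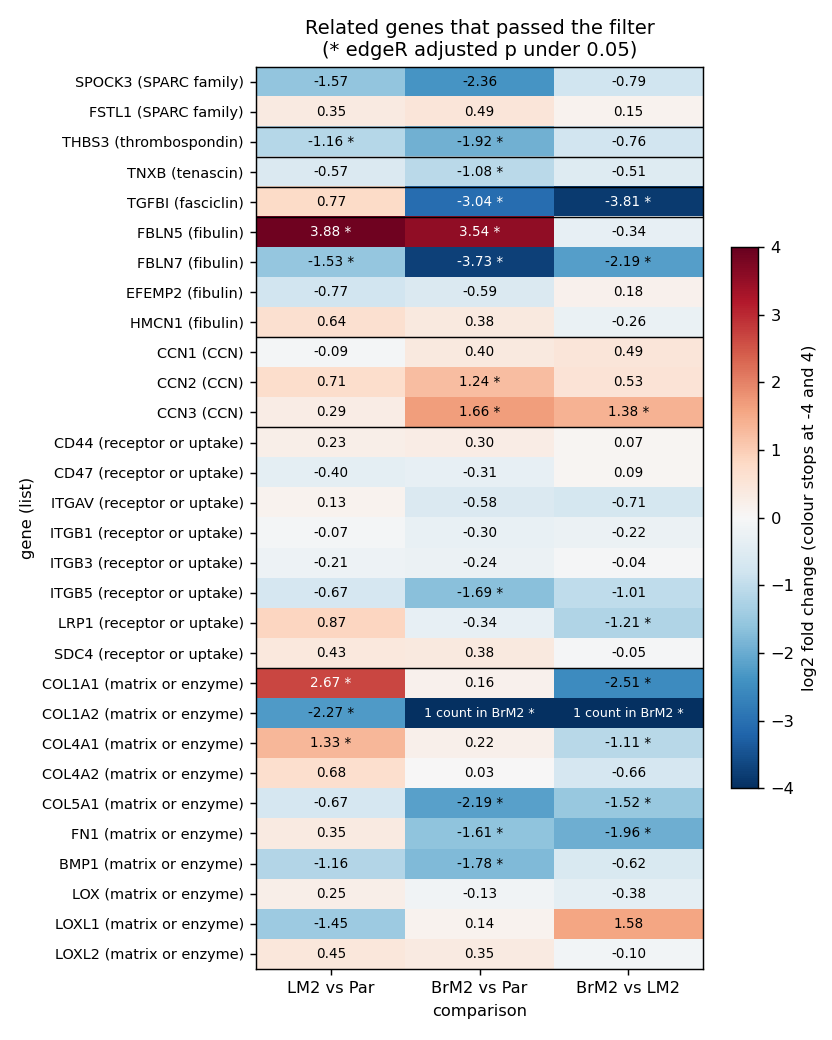
Log2 fold changes of the related genes that passed the filter, by list, in the 3 comparisons; colour gives the log2 fold change up to 4 in either direction and an asterisk an edgeR adjusted p under 0.05. COL1A2, with 1 count in BrM2, carries no fitted value there; TGFBI, at -3.81 against LM2, is among the darkest cells.

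Since several of these genes are also expressed by stromal cells, marker lists were read in the same libraries. The summed level of 7 fibroblast markers was 28.9 to 32.6 CPM in Par, 4.43 to 10.6 CPM in LM2 and 9.64 to 13.9 CPM in BrM2, and DCN, the gene of decorin, was at or under 3 counts in every library. PDGFRB, a receptor of fibroblasts and pericytes, was 4.78-fold lower in LM2 than in Par (log2 fold change -2.26, adjusted p = 0.0067) and 3.60-fold lower in BrM2 than in Par (-1.85, adjusted p = 0.012; up to 0.064 without BrM2 replicate 2 or 3). THY1 was counted 1, 0 and 0 times in Par and 44, 77 and 61 times in BrM2, a 208-fold ratio (95% exact counting interval 36.8 to 8253). PDGFRB alone was 26.5 to 31.1 CPM in Par and made up most of that list's sum there.

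The leukocyte list summed to 1.28 to 4.61 CPM over the 9 libraries and the endothelial list to 6.81 to 13.3 CPM. Among mammary epithelial markers, 2 of 5 tested genes fell in LM2 against Par, beside 8.69% of all tested genes called. They were KRT7 (2.80-fold, adjusted p = 0.026) and KRT19 (4.52-fold, adjusted p = 0.017), calls lost without replicate 1 or 2 of Par or replicate 2 or 3 of LM2 (adjusted p up to 0.11). KRT7 also fell 8.01-fold in BrM2 (log2 fold change -3.0, adjusted p = 0.00075). The other 4 tested genes were not called in BrM2 against Par, where 13.3% of all tested genes were called. KRT19 was at 169 to 251 CPM in Par, 29.0 to 72.7 CPM in LM2 and 104 to 283 CPM in BrM2. In BrM2 against LM2, 1 of the 5 markers was higher and 1 lower. VIM, a mesenchymal filament gene, was 2.12-fold higher in LM2 (adjusted p = 0.020) and 2.07-fold higher in BrM2 (adjusted p = 0.016) than in Par, and was not called without Par replicate 2 or 3, nor, in BrM2, without BrM2 replicate 2 (adjusted p up to 0.10). Of the 3 markers of a mesenchymal-like line, the other 2, ZEB1 and CD44, were not called in either sub-population against Par. The part of all these markers in the differences of the members was not tested.

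Reads of overlapping genes could enter some counts, since the strand setting of the count is not stated. Genes on the opposite strand overlap exons of SPARC (CLMAT3), TNC (DELEC1), THBS1 (FSIP1 and THBS1-AS1) and THBS2 (THBS2-AS1), and none of these partners exceeded 15 counts in any library. THBS2-AS1 had 0 to 8 counts over the 9 libraries, beside 19 to 27 counts of THBS2 in LM2.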

How the data were processed

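RNA-seq was measured in 9 libraries, 3 each of Par, LM2 and BrM2, grouped by their labels. The authors aligned paired-end reads from stranded mRNA libraries to hg38 with STAR (2.7.0) and deposited raw counts per gene against a GENCODE annotation. The strand counted is not given in the sources used here. A deposited table of the authors' own DESeq2 comparisons (log2 fold changes and adjusted p-values of LM2 and BrM2 against Par) was not used. Of 58887 lines, 3 repeated an identifier with identical counts and were counted once. There were 0 value columns of other series.

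Counts were filtered at a largest normalized count of 47.15, chosen by an HTSFilter-like Jaccard index (13055 genes, at least 99.64% of counts in each library). They were tested with edgeR 4.0.16 (quasi-likelihood F test, TMM, 2-sided, line as the term) and adjusted by Benjamini-Hochberg at 0.05. SE is the absolute log2 fold change over the square root of F, and means are TMM-scaled CPM. DESeq2 1.42.0, RLE scaling, other filters, a replicate block and fits without libraries were alternatives. An exact permutation test of 3 against 3 cannot go below p = 0.1. Scripts were tested on simulated data.

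Replicate numbers are in the labels, and the replicates came from different passages. Deviations from the line means correlated at 0.23 to 0.898 in all 9 same-number pairs. The numbers were taken to pair the libraries in the replicate block and the within-number differences, not in the main fit. Pairs with other numbers reached 0.801: set against each other line, a library correlated best with its own number in 12 of 18 cases, among them all 6 of the replicate 1 libraries. The members and gene lists were chosen with earlier results of these data known. Named were the members, up to 4 called genes per list by size of the log2 fold change, and the genes most like each member by Pearson's r. The limit of 50 on the mean count of these genes did not hold over all 9 libraries for MAP6 and ENSG00000234476. MAP6 was highest in Par and ENSG00000234476 in LM2. Positions and promoters are from RefSeq on GRCh38.p14. Transcript lengths and overlaps are from GENCODE, with no coordinate printed from it.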

Additional observations from a re-analysis of the deposited data

Results flagged for a closer look

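For 5 members the difference from Par was not the same in the lung and brain sub-populations, as tested directly by BrM2 against LM2 in edgeR (the Par libraries are shared and cancel). SPARC rose in both, by less in BrM2 (log2 difference -4.63, adjusted p = 0.00036). THBS2 fell in LM2 and rose in BrM2 (4.50, adjusted p = 7.3e-05). TNC rose in LM2, and its BrM2 against Par difference was not called (-1.06, adjusted p = 0.0047). FBLN1 rose in LM2, and its BrM2 against Par difference was not called (-1.61, adjusted p = 0.023). EFEMP1 fell in both, by less in BrM2 (1.0, adjusted p = 0.0090). Without the replicate 2 libraries, of these 5 only THBS2 kept its BrM2 against LM2 call. Without the replicate 3 libraries only SPARC and THBS2 did. The FBLN1 call was kept in 6 of the 9 fits without 1 library.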

How the results depend on the processing

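RLE scaling, edgeR's own filter and no filter each left the 21 differences of the 7 tested members on their side of the threshold with the same sign. Without a filter SMOC1 was also called in LM2 against Par and in BrM2 against Par, so that 7, 6 and 5 members were called. Beside them 1498, 2165 and 1446 genes were called, out of the 34056 with at least 1 count rather than the 13055 that passed the filter. The replicate block brought 4 further differences under 0.05 and DESeq2 brought 2, all given above, and neither removed a call. Over all alternatives, 325 member differences were unchanged in sign and call, 8 passed newly, 23 were lost and 1 turned: without the replicate 2 libraries TNC in BrM2 against Par was 0.0122 on the log2 scale (adjusted p = 1), where the 9 fits without 1 library gave -0.1757 to -0.0334. Of the 23 losses, 12 came without the replicate 2 libraries and 8 without the replicate 3 libraries and 0 without the replicate 1 libraries. The cause was not tested. The number of called genes over the whole table moved more. In LM2 against Par, BrM2 against Par and BrM2 against LM2, the main edgeR fit called 1134, 1733 and 1057 genes. DESeq2 called 1893, 2520 and 1824, and the replicate block called 4510, 5577 and 4896. Leaving out 1 library gave 591 to 1266, 941 to 2119 and 545 to 1211 called genes of the 13055 tested. Members called were then 6, 5 to 6 and 4 to 5. Leaving out a replicate number gave 70 to 4327, 159 to 5274 and 53 to 4257 genes, with 2 to 6, 1 to 6 and 1 to 5 members called, the highest without replicate 1. The common dispersion was 0.11, or 0.0207 with the block. At this depth SPARCL1, SMOC1 and POSTN, at 6 counts or fewer, could not be compared between LM2 and BrM2.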

Other observations

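Outside the set, the gene whose log2 CPM over the 9 libraries ran closest to each other member differed from member to member. It was IL6R for SPOCK1 (Pearson's r = 0.993), STOM for TNC (r = 0.986), MAP6 for THBS1 (r = 0.984), SPANXB1 for THBS2 (r = 0.990), SLCO4A1-AS1 for FBLN1 (r = 0.991) and SLC22A5 for EFEMP1 (r = 0.992). Like those above, these values mainly follow the differences between the 3 lines, which the 9 libraries share, and they carry no test. IL6R, a cytokine receptor gene, ranged from 0.105 to 0.274 CPM in Par, 3.32 to 4.35 CPM in LM2 and 1.69 to 2.91 CPM in BrM2. SPANXB1, a testis-expressed gene, ranged from 47.5 to 59.6 CPM in Par, 26.8 to 30.5 CPM in LM2 and 189 to 249 CPM in BrM2, lowest in LM2 and highest in BrM2 as THBS2 was.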
